A study of Mus musculus with 384 samples.

Results

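The cells described here were regulatory T (Treg) cells sorted singly from mouse ear skin and split by whether a Foxp3 read was counted in the well. They were selected on 3 measures. A single-cell well was kept from 500 genes and 10000 counts upward, and a kept cell was called Foxp3-detected with 1 or more Foxp3 counts and Foxp3-undetected with 0. Of the 87 single-cell wells on each of 4 plates, 62 and 58 were kept after vehicle and 38 and 44 after imiquimod. Among the kept cells 75 were Foxp3-detected (37.1%), and the undetected cells numbered 38, 35, 24 and 30 on the same plates. Foxp3 chose the classes, so its own level is given below as a description and it was left out of every comparison.

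The series sequenced Treg cells on plates after their mice, under isoflurane, had received vehicle or 5% imiquimod on the ear skin, with sorting on day 3. Imiquimod is a Toll-like receptor agonist used in mice to model psoriasis. Each treatment had 2 plates, and the series also held 16 wells with 10 cells each and 20 that received no cell. The design names 2 mice per treatment without tying plates to mice, and the sources used here name no strain, genotype, sex, age or sort marker. The 2 classes always came from the same plates, so each comparison was made within a plate and the spread was taken over the 4 plates, which may be technical.

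Foxp3 is the forkhead transcription factor that specifies Treg cells and maintains their suppressive function. It acts with other factors to raise genes such as Il2ra, Ctla4 and Icos and to hold down cytokine genes such as Il2 and Ifng, and Treg cells that settle in skin also express Gata3 and Il1rl1, the receptor for interleukin-33. Many messenger RNA molecules of a single cell are lost before amplification, so a count of 0 in 1 well does not show that the cell lacked the transcript.

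Foxp3-detected cells made up 24 of 62 kept cells on vehicle plate 1, 23 of 58 on vehicle plate 2, 14 of 38 on imiquimod plate 1 and 14 of 44 on imiquimod plate 2. In that order the shares were 38.7%, 39.7%, 36.8% and 31.8%. The vehicle and imiquimod plates did not overlap, at 39.2% ± 0.669 against 34.3% ± 3.55 (SD, n = 2 plates each). With 2 plates in each treatment an exact permutation test (two-sided) cannot give a p below the 0.33 found here. The difference was -4.85 percentage points, and it was -7.36 without imiquimod plate 1 and -2.34 without imiquimod plate 2. Among cells with at least 1000 genes it was -12.96, and over all wells with any count -13.97. With every cell thinned to 200000 counts it was -3.98, and the plates overlapped (exact permutation p = 0.67). None of the 20 wells without a cell had a Foxp3 count, and 0 of 20 leaves room for a share of at most 15%, counting error only. It was counted in all 16 wells of 10 cells, at 43.3 to 1237 CPM (a gene's counts scaled to a well total of 1000000), and in 11 of the single-cell wells that were left out (7.53%).

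Within the Foxp3-detected class the Foxp3 count ran from 1 to 39893 reads, with a median of 1650. The median level was 795 and 455 CPM for vehicle and 729 and 1403 CPM for imiquimod. A single cell held 28.6%, 29.7%, 52.2% and 24.4% of all Foxp3 counts of its plate, so sums of Foxp3 over a plate lean on few cells. Just inside the threshold lay 4 cells with 1 Foxp3 count and 4 with 2, another 4 had 3 to 20, and 63 had more than 20. The 8 cells with 1 or 2 counts had a median of 1240 genes and on average 3.13 of 8 Treg markers with a count (Ctla4, Ikzf2, Icos, Il2ra, Tnfrsf4, Tnfrsf18, Tnfrsf9 and Ikzf4). The 63 cells over 20 counts had 2183 genes and 4.35 markers, and the undetected cells just outside the threshold, with 0 counts, had 945 genes and 2.13 markers. These values describe the cells on both sides of the threshold and were not tested.

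Foxp3-detected cells yielded more genes and more reads than Foxp3-undetected cells on every plate. A split by detection of 1 gene itself favours cells of high yield, so the direction and its tests are not independent of the split. The median number of genes detected per cell, with Foxp3 itself not counted, was 2221 against 840.0 on vehicle plate 1 and 2739 against 1043 on vehicle plate 2. It was 1079 against 794.5 on imiquimod plate 1 and 1344 against 1043 on imiquimod plate 2. The mean log2 ratio was 0.90 ± 0.57 (SD, n = 4 plates), a 1.87-fold difference that was higher in 4 of 4 plates. The exact two-sided sign-flip permutation p of 0.13 is as small as 4 plates permit. Median counts per cell were 2.53-fold higher, also in 4 of 4 plates (exact permutation p = 0.13). After each cell was thinned to 200000 counts, which left out 1 detected and 6 undetected cells, the detected class still had 2.12-fold more genes in 4 of 4 plates (exact permutation p = 0.13). The mean log2 ratio was 0.47 when only cells with at least 1000 genes entered and 1.74 when all wells with any count did, in 4 of 4 plates each.

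**Figure D1:**
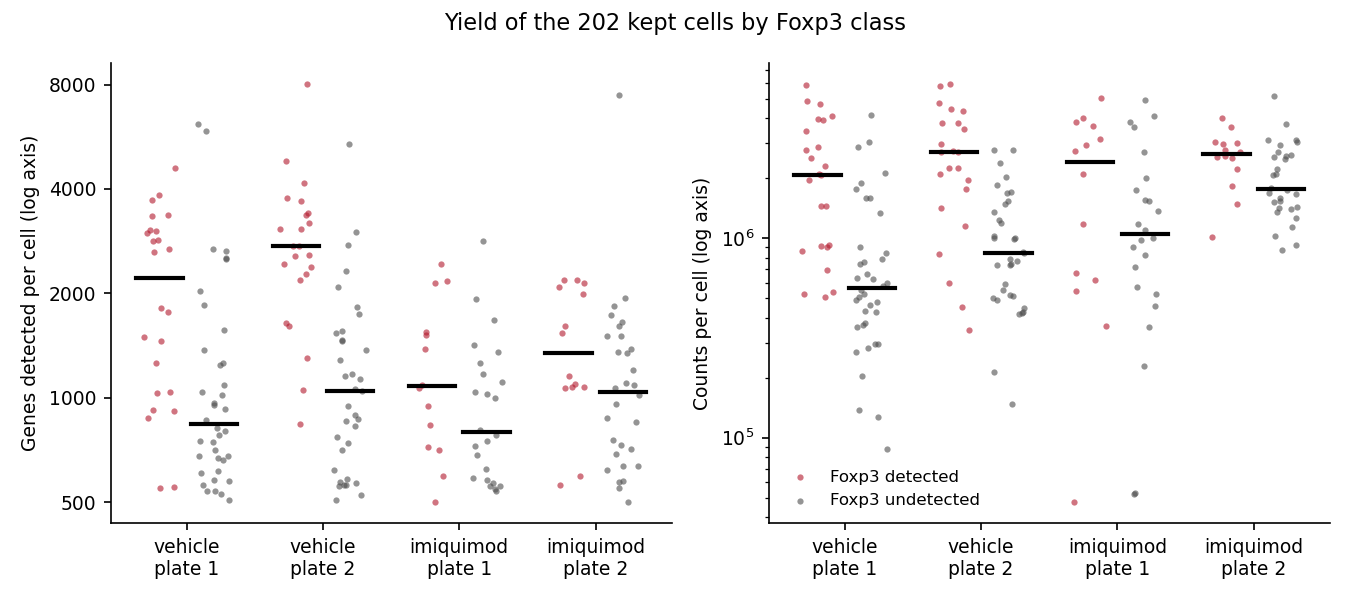
Genes detected per cell without Foxp3 (left) and counts per cell (right), both on log axes, for the Foxp3-detected (red) and Foxp3-undetected (grey) kept cells of each plate. Points are single cells and black bars are class medians. The detected class has the higher median on all 4 plates, and single cells of both classes overlap throughout.

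The gap in yield was wider on the vehicle plates than on the imiquimod plates. For vehicle the class ratio of median genes was 2.64-fold and 2.63-fold, and for imiquimod it was 1.36-fold and 1.29-fold. In log2 units the ratio was 1.40 ± 0.0067 for vehicle and 0.40 ± 0.053 for imiquimod (SD, n = 2 plates each), a difference of -0.99. The treatments' plates did not overlap, and the exact two-sided permutation p was 0.33, the smallest possible.

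Seen from the other side, Foxp3 was found more often the more genes a cell yielded. Foxp3 was counted in 8 of the 51 cells with 500 to 724 genes (15.7%), in 15 of 50 with 732 to 1098 genes and in 15 of 50 with 1103 to 1992 genes (30.0% each). Among the 51 cells with 2030 to 8032 genes it was counted in 37 (72.5%). Above the plate's own median number of genes, the share of cells with Foxp3 was 58.1% and 69.0% for vehicle and 42.1% and 40.9% for imiquimod. At or below that median the shares were 19.4%, 10.3%, 31.6% and 22.7% in the same order, lower on each plate.

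**Figure D2:**
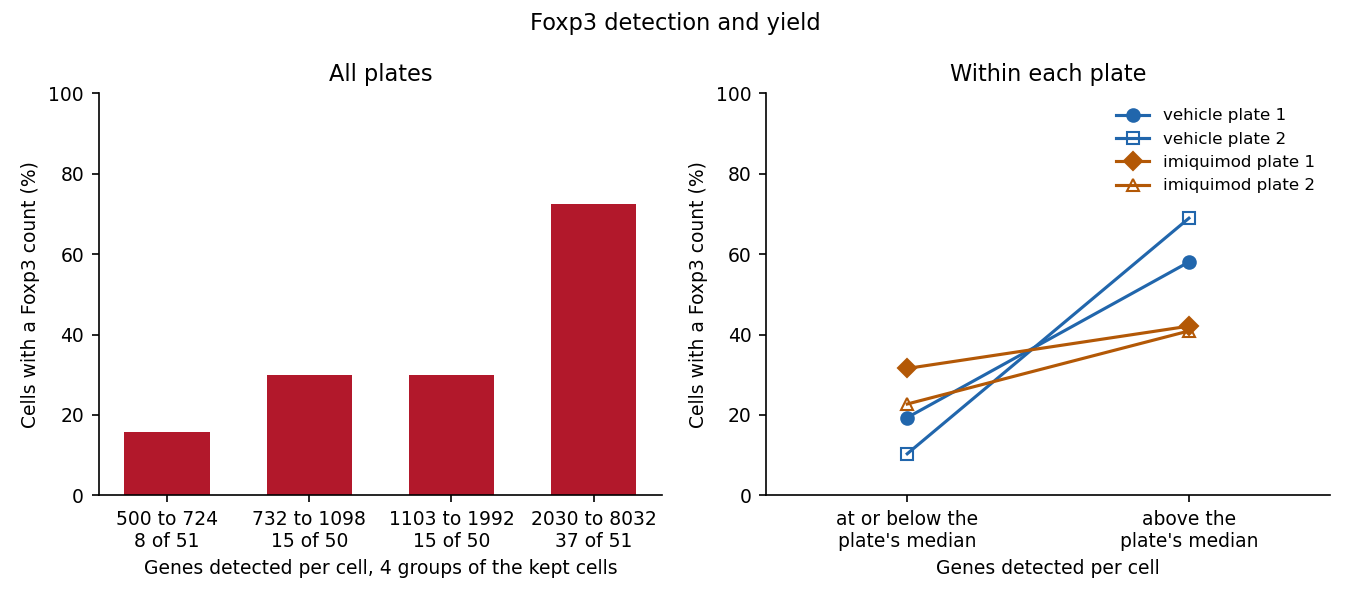
Share of kept cells with a Foxp3 count, in percent, in 4 groups of cells by genes detected (left, with the number of cells) and at or below against above the median of each plate (right, 1 line per plate). The share goes from 15.7% in the lowest group to 72.5% in the highest, and all 4 lines slope upward.

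Treg genes were detected in larger shares of Foxp3-detected cells when all kept cells were compared. Ctla4, the inhibitory receptor that competes for costimulatory ligands, had a count in 14, 13, 6 and 4 of the 24, 23, 14 and 14 detected cells of vehicle plates 1 and 2 and imiquimod plates 1 and 2. In the undetected class it had a count in 7, 6, 4 and 4 of 38, 35, 24 and 30 cells. The shares were 49.3% against 16.5% over all plates, and the larger share was in the detected class on 4 of 4 plates. Icos, an inducible costimulatory receptor, had a count in 44 of 75 detected (58.7%) against 35 undetected cells (27.6%), again on 4 of 4 plates. Tnfrsf18, which encodes the costimulatory receptor GITR, was counted in 36 against 25 cells (48.0% and 19.7%) and Tnfrsf4, which encodes OX40, in 35 against 23 cells (46.7% and 18.1%, 3 of 4 plates).

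Tests of these shares used the number of cells with a count in edgeR, with the number of cells as offset. This test called 442 of 8540 genes higher in the detected class (5.18% of genes tested) and none lower. Ctla4 (adjusted p = 0.011), Tnfrsf4 (0.023), Tnfrsf18 (0.028) and Icos (0.031) were among those called. Il2ra, the high-affinity chain of the interleukin-2 receptor, was counted in 49 against 47 cells (65.3% and 37.0%) and did not pass (adjusted p = 0.086). Ikzf2, which encodes the Treg transcription factor Helios, was counted in 53 against 67 cells (70.7% and 52.8%, adjusted p = 0.31) and had the closest shares of these 6 genes. Among 23 tested genes that are known to be higher in Treg cells, 5 were called and 21 were found in a larger share of detected cells. Their median shares were 30.7% and 15.7%, beside 14.7% and 7.09% over all genes tested. Of all 8540 genes tested, 7777 were found in a larger share of the detected class and 763 in a smaller one, so a larger share in the detected class is the background here.

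The genes of the T cell receptor complex and its proximal kinases included Cd3e and Cd4 among those called. Cd3e, the epsilon chain of CD3, had a count in 9, 13, 7 and 4 detected cells and in 5, 1, 3 and 6 undetected cells of the plates in the order above. Over all plates this was 44.0% against 11.8% (edgeR on cells with a count, adjusted p = 0.0073). Cd4 was counted in 32 against 16 cells (42.7% and 12.6%, adjusted p = 0.011). Tcrb and Tcra are symbols of whole receptor loci, so their counts are not tied to the constant region. Tcrb was found in 65 against 75 cells (86.7% and 59.1%) and Tcra in 59 against 82 cells (78.7% and 64.6%). Neither was called. Of the 17 genes on this list, 9 were called, beside 5.18% of all genes tested, and all 17 were found in a larger share of detected cells, beside 91.1% of all genes.

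On the scale of summed counts edgeR called no gene, whereas DESeq2 called many. edgeR's quasi-likelihood test on the 8 sums of counts, with the plate as a block, called 0 of 8540 genes at an adjusted p of 0.05 (0% of genes tested). At an unadjusted p under 0.05 it listed 100 genes higher (1.17%) and 47 lower (0.55%) in the detected class. DESeq2 on the same sums called 1481 genes, 834 of them higher (9.77%) and 647 lower (7.58%). The common dispersion in edgeR was 3.37. The level of Ctla4 was 1396, 544, 656 and 584 CPM in the detected sums and 725, 534, 718 and 222.2 CPM in the undetected sums. Single cells held 97% and 93% of its undetected counts on the imiquimod plates. Its log2 fold change was 0.31 ± 0.91 (SE), and Icos had 1.07 ± 0.57, Il2ra -0.16 ± 0.52 and Ikzf2 -0.11 ± 0.39, all at an edgeR adjusted p of 1. Of the 23 known Treg genes tested, 10 had a positive fold change, with a median of -0.14 beside 0.0040 over all genes.

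In 45 pairs of cells matched on genes detected, Treg genes differed less between the classes. Detected cells were paired with undetected cells of their plate at most 0.25 log2 units apart in genes detected, which found a partner for 15 of 24, 6 of 23, 13 of 14 and 11 of 14 detected cells. The detected cells without a partner took no part. The matched classes had medians of 1098 and 1112 genes and of 1775378 and 1425131 counts. Ctla4 was counted in 17 of 45 detected and 12 of 45 undetected matched cells, Icos in 22 and 18, Il2ra in 25 and 19, Tnfrsf18 in 15 and 14, Tnfrsf4 in 12 and 10, and Ikzf2 in 28 and 29. In all kept cells, detected and undetected cells of a plate had on average 4.54 and 2.55, 4.78 and 2.09, 3.07 and 1.71, and 3.64 and 1.97 of the 8 Treg markers, a mean difference of 1.93 ± 0.57 (SD, n = 4 plates). In matched cells they had 3.53 and 3.47, 3.33 and 3.00, 2.77 and 2.08, and 3.27 and 2.55, a mean difference of 0.45 ± 0.31. The matched values were higher in the detected class on 4 of 4 plates. With each matched cell thinned to 200000 counts the difference was 0.37 ± 0.51, higher on 3 of 4 plates, and vehicle plate 2 had 2.67 and 3.00 markers. No p is given for a score over these markers.

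**Figure D3:**
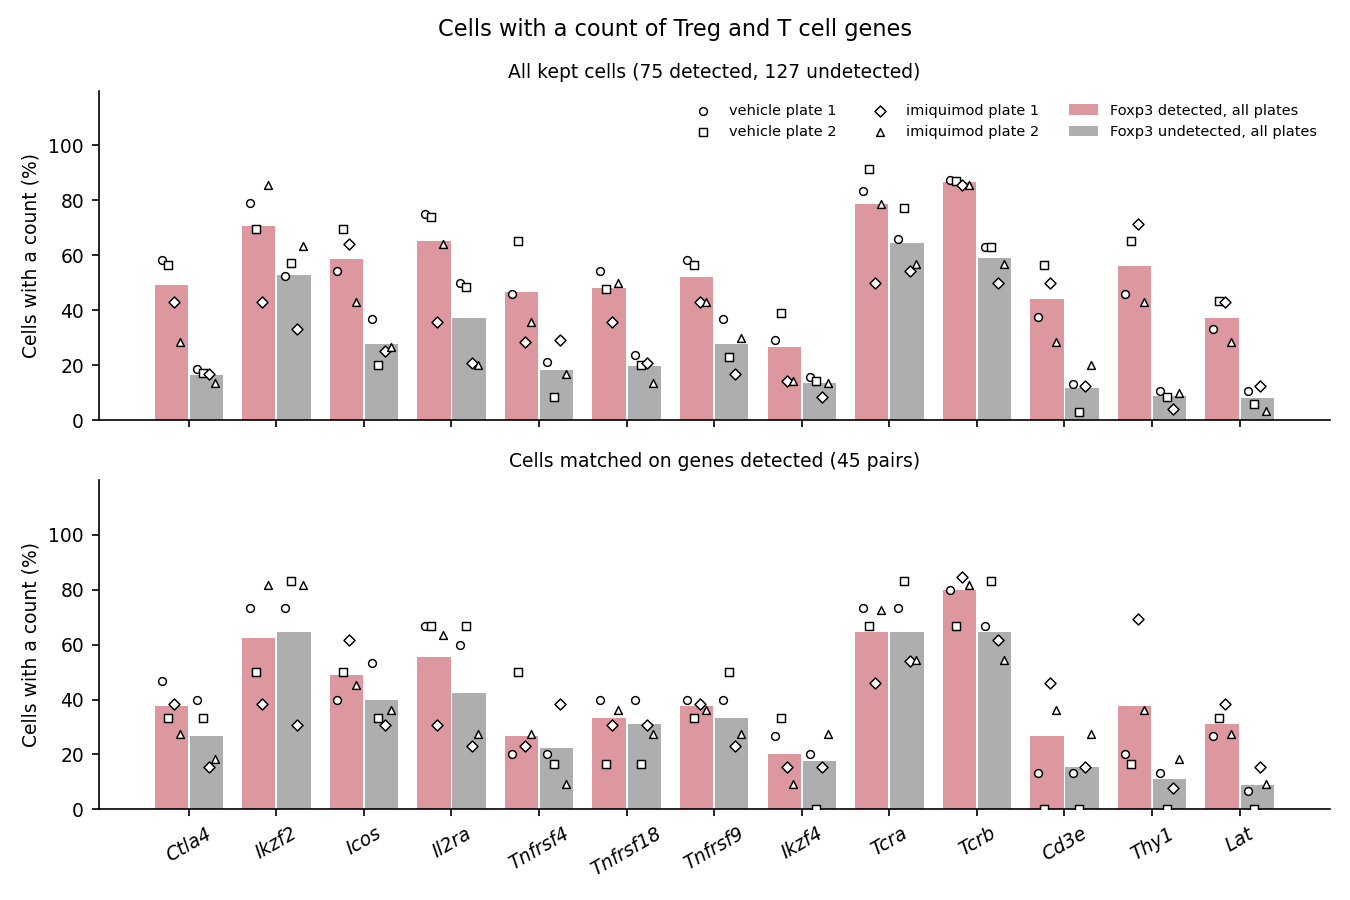
Share of cells with a count of 8 Treg genes and 5 T cell genes, in percent, in Foxp3-detected (red) and Foxp3-undetected (grey) cells, for all kept cells (top) and matched cells (bottom). Bars pool all plates and symbols are single plates. The bars of Ctla4 stand at 49.3% and 16.5% in all kept cells, and those of Ikzf2 are nearly level in matched cells.

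No gene passed in matched cells by edgeR on sums (0 of 3701, 0%), by edgeR on cells with a count (0, 0%) or by limma, run on each cell's log2(CPM + 1) averaged within a class (0, 0%). At an unadjusted p under 0.05, edgeR on sums listed 41 genes higher (1.11%) and 18 lower (0.486%), limma 4.30% of genes and the test on cells with a count 47 genes. DESeq2 called 766 genes, 457 of them higher (12.3%) and the others lower (8.35%). The known Treg genes had 19 members tested, of which 11 were found in more and 5 in fewer detected cells, and DESeq2 called 0 of them higher and 4 lower. Their median shares were 28.9% and 22.2%, beside 15.6% and 13.3% over all genes tested. Among all 3701 genes, 2072 were found in more and 1169 in fewer detected cells. The intervals are wide at 4 plates: in limma the matched difference was 0.40 ± 0.93 for Ctla4, 1.21 ± 1.11 for Icos, 0.23 ± 1.10 for Il2ra and -1.26 ± 1.08 for Ikzf2 (log2 units, SE).

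Nearly all cells of both classes had a count of at least 1 T cell or Treg gene. At least 1 of the 8 Treg markers had a count in 71 of 75 detected cells (94.7%) and in 85.8% of undetected cells. A count of Tcra, Tcrb, Cd3e, Cd3d or Cd3g was found in the same numbers of cells (94.7% and 85.8%). These counts rested mostly on the whole-locus symbols, with Tcra in 59 detected and 82 undetected cells and Tcrb in 65 and 75. Cd3e was counted in 33 and 15 cells, Cd3d in 16 and 9 and Cd3g in 19 and 6. Only 1 detected and 2 undetected cells had neither a Treg marker nor a receptor or CD3 count. In matched cells a receptor or CD3 count was found in 41 of 45 cells of each class. Among the 20 empty wells, 2 had a Treg marker (10%) and 3 a receptor or CD3 count (15%). Cd8a was counted in 2 detected and 1 undetected cell. Of the gamma-delta T cell markers, Trdc, Trdv4 and Il17a had no count in any kept cell. Blk was counted in 3 detected and 8 undetected cells, Cd163l1 in 3 and 8 and Sox13 in 1 and 3. The Tcrg symbols of that list were not among the deposited gene symbols.

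The matched cells came mostly from the lower 3 of the 4 yield groups, and the highest group, from 2030 genes upward, showed wider gaps. There, 37 detected and 14 undetected cells had medians of 2855 and 2717 genes. Detected cells had on average 5.76 and undetected cells 3.50 of the 8 Treg markers. From 1103 to 1992 genes the averages were 3.47 and 2.77, from 732 to 1098 genes 2.13 and 1.86, and from 500 to 724 genes 2.00 and 1.37. Ctla4 was counted in 27 of 37 detected but 2 of 14 undetected cells of the highest group, and Thy1, a surface glycoprotein of T cells, in 31 and 5. Icos was counted in 29 and 10 and Ikzf2 in 32 and 11 cells, shares that lay close together. The group was looked at after the matched values were seen, and it was not tested, because 1 cell stood for the undetected class on each imiquimod plate. On the vehicle plates the undetected cells numbered 7 and 5, with 4.29 and 2.20 markers on average, against 6.17 and 5.39 in 12 and 18 detected cells. All 14 undetected and all 37 detected cells of the group had a T cell receptor or CD3 count. Taken singly, Cd3e was counted in 25 of 37 detected and 3 of 14 undetected cells, and Cd4 in 24 and 1. At least 3 markers of another cell type were found in cells of both classes of this group. For dendritic cells, whose list holds MHC class II genes, this was 12 detected and 5 undetected cells, and for group 2 innate lymphoid cells, whose list shares Il1rl1, Areg, Klrg1 and Rora with tissue Treg cells, 15 and 2. It was 5 and 1 cells for erythroid, 3 and 1 for fibroblast and 3 and 0 for macrophage markers. It was 0 and 2 for endothelial, 0 and 1 for gamma-delta T cell and 0 and 1 for keratinocyte markers. The part of other cells in these values was not tested.

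Per cell rather than per sum, limma called 24 of 8540 genes in all kept cells, all higher in the detected class (0.281%). On this scale 83.0% of all genes tested had a positive difference, so a higher value in the detected class is the background here. These genes had differences of mean log2(CPM + 1) with a median of 3.36, beside 0.29 over all genes tested. Thy1 had a count in 11, 15, 10 and 6 detected cells and in 4, 3, 1 and 3 undetected cells of the plates in the order above. Its mean log2(CPM + 1) was 2.00, 3.25, 4.70 and 2.20 against 0.48, 0.43, 0.03 and 0.56, so the classes did not overlap, and the difference was 2.66 ± 0.61 (SE, limma adjusted p = 0.024). Lat, the membrane adaptor that links the T cell receptor to its signals, had means of 3.15, 3.44, 4.37 and 2.76 against 0.53, 0.40, 1.22 and 0.36 (2.80 ± 0.68, limma adjusted p = 0.039). Il2rg, the common gamma chain of cytokine receptors, differed by 3.83 ± 0.95, and Nfkbia, the inhibitor of NF-kB, by 3.80 ± 0.93 (limma adjusted p = 0.040 and 0.039). H2-K1 and H2-D1, class I molecules that present peptides, differed by 3.59 ± 0.60 and 3.73 ± 0.84. Coro1a, an actin-binding protein of leukocytes, differed by 3.96 ± 0.96 and the intermediate filament gene Vim by 3.06 ± 0.76. The others included mitochondrial and ribosomal RNA sequences (mt-Rnr2, COX1, CYTB, Rn18s-rs5), the elongation factor Eef2, and Ptbp1 with Plppr3. Ptbp1 and Plppr3 overlap on opposite strands of chromosome 10, and 39 of the 43 and 40 kept cells with a count of either had both, so their reads cannot be told apart where counting ignored strand.

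All 24 genes had a smaller difference in matched cells, where their median was 1.98 beside 0.12 over all genes tested. The matched cells are part of the same cells, so this is not independent of the choice of the 24. The difference was positive for 23 of them, beside 60.0% of all genes tested in matched cells. An unadjusted limma p under 0.05 was found for 17, but every adjusted p was at least 0.853. Thy1 was counted in 3, 1, 9 and 4 matched detected cells and in 2, 0, 1 and 2 matched undetected cells, and imiquimod plate 1 held most of its surplus (1.67 ± 0.67). Lat was counted in 4, 2, 5 and 3 against 1, 0, 2 and 1 cells (2.05 ± 0.71), more on 4 of 4 plates. Malat1, a nuclear long noncoding RNA, went from 1.26 ± 0.31 in all cells to -0.06 ± 0.72, and mt-Rnr2 from 3.35 ± 0.63 to 3.24 ± 1.00.

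**Figure D4:**
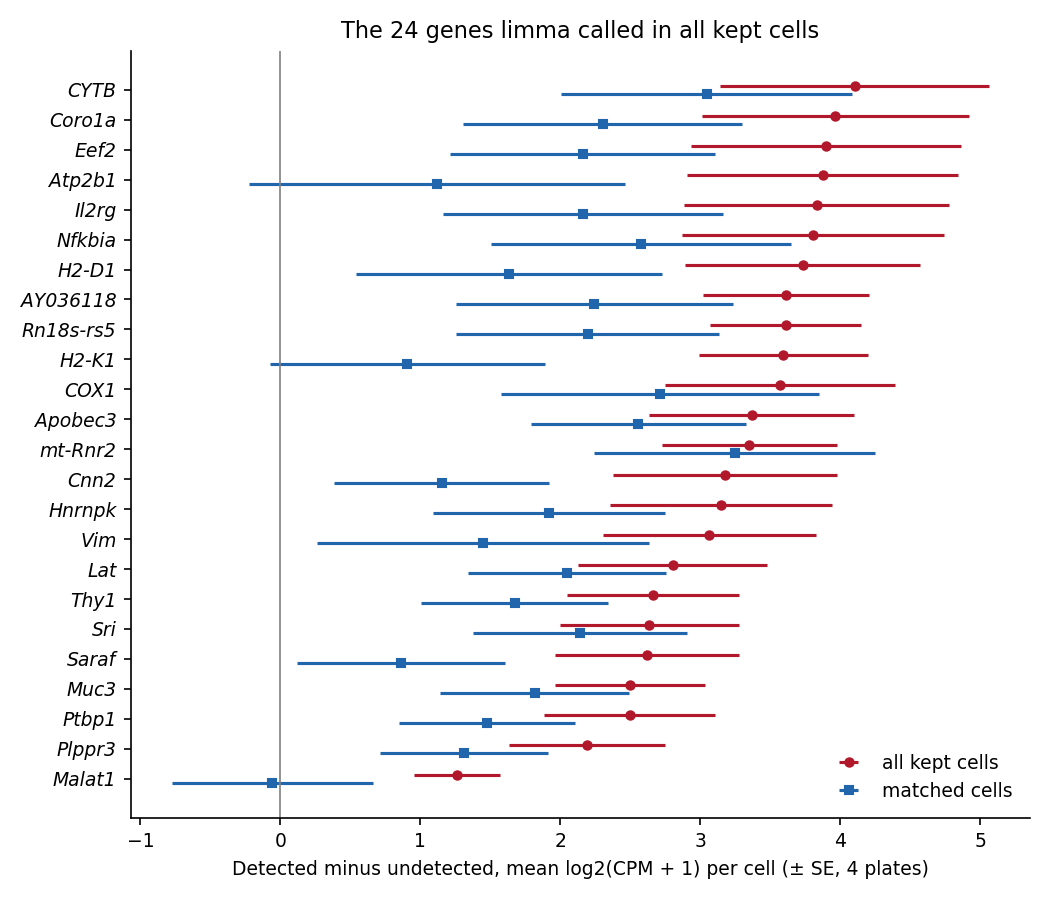
Difference between Foxp3-detected and Foxp3-undetected cells in mean log2(CPM + 1) per cell, with its SE over 4 plates, for the 24 genes that limma called in all kept cells. Red points are all kept cells and blue squares are matched cells. The red points run from 1.26 for Malat1 to 4.10 for CYTB, and each blue square lies to the left of its red point.

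The mitochondrial share of counts was higher in Foxp3-detected cells with and without matching. In all kept cells the median share was 0.542% against 0.190%, 0.498% against 0.173%, 0.644% against 0.273% and 0.653% against 0.169% on the 4 plates. In matched cells it was 0.336% against 0.190%, 0.417% against 0.107%, 0.665% against 0.270% and 0.607% against 0.00216%. The difference was 0.383 ± 0.070 and 0.364 ± 0.19 percentage points (SD, n = 4 plates), higher in 4 of 4 plates in both, with an exact permutation p of 0.13 in each. The shares of both classes did not overlap in either set of cells. All 9 mitochondrial genes tested in matched cells were found in more detected cells, beside 56.0% of all genes tested there. Of 32 cytosolic ribosomal protein genes, 25 were found in more detected cells in matched cells and none was called. In all kept cells all 32 were found in a larger share, beside 91.1% of all genes, and 16 were called by the test on cells with a count, beside 5.18%.

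**Figure D5:**
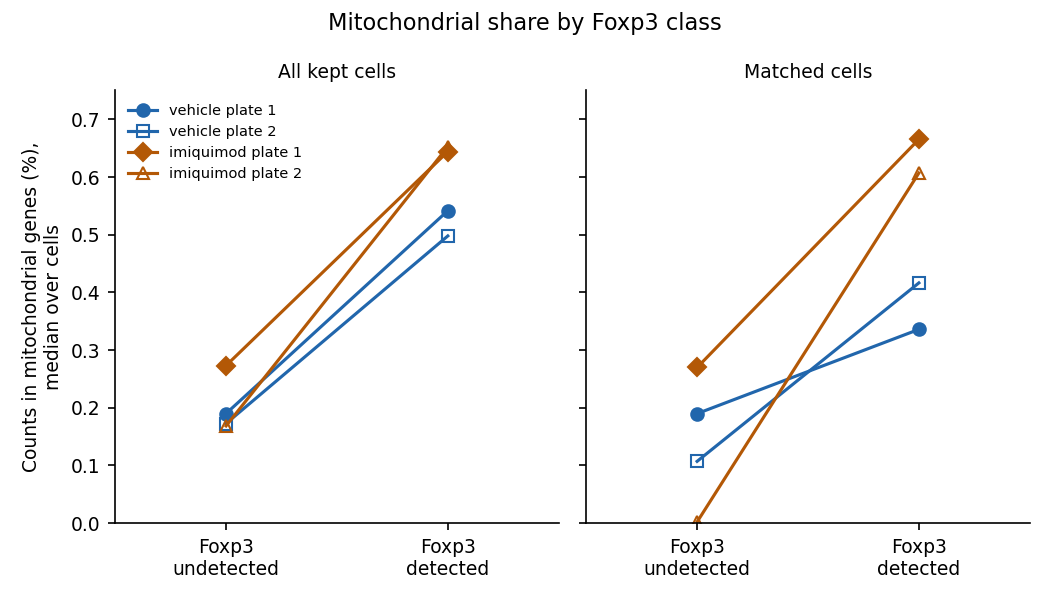
Median share of counts in mitochondrial genes, in percent, in the Foxp3-undetected and Foxp3-detected cells of each plate, for all kept cells (left) and matched cells (right). Each line is a plate, and all lines rise from the undetected to the detected class.

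Genes of short genomic span were found in a larger share of detected cells more often than long genes were. Among all kept cells, 95.9% of genes in the shortest of 5 groups by span were found in a larger share of detected cells and 84.2% of those in the longest. In matched cells these values were 69.1% and 47.3%. Genes of at least 100 kb made up a smaller part of the genes detected per cell in the detected class on 4 of 4 plates (difference -4.98 ± 3.14 percentage points, SD, exact permutation p = 0.13) and on 2 of 4 plates after matching. Yield, mitochondrial share and span all move with the classes, and their part in the gene differences was not tested.

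Genes that mark skin Treg cells were found in both classes. Gata3 was counted in 45 of 75 detected and 44 undetected cells (60.0% and 34.6%), and in 23 and 19 matched cells. Il1rl1 was counted in 25 and 30 cells (33.3% and 23.6%), Areg, which encodes the tissue repair factor amphiregulin, in 21 and 20, and Il10, which encodes an anti-inflammatory cytokine, in 17 and 16. After matching, Il1rl1 stood at 11 and 10 cells, Areg at 8 and 9 and Il10 at 9 and 7. The chemokine receptor gene Ccr8 was counted in 16 and 9 cells and in 6 and 3 matched cells. Of 25 tissue and effector Treg genes tested, 2 were called by the test on cells with a count in all kept cells, near the 5.18% of all genes. In matched cells 0 of 21 were called, and 12 (57.1%) were found in more detected cells, near the 56.0% of all genes. Penk, the enkephalin precursor gene, was counted in 10 detected cells and 1 undetected cell, and in 4 and 0 matched cells, all 4 on imiquimod plate 1. It had too few counts to be tested.

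Genes that Treg cells hold down were mostly counted in few cells of either class. Il2 was counted in 0 detected and 1 undetected cell, Ifng in 1 and 1, Cd40lg in 6 and 1, and Il17a in none. Il7r, a receptor that conventional T cells carry at higher levels, was counted in 27 detected and 26 undetected cells (36.0% and 20.5%) and in 11 matched cells of each class. Of 12 tested genes known to be lower in Treg than in conventional CD4 T cells, 11 were found in a larger share of detected cells (91.7%), and 4 of 9 in matched cells (44.4%). Over all genes tested these shares were 91.1% and 56.0%, so the list lay near the background. In all kept cells the member of that list with a smaller detected share was Bach2, at 14 detected and 27 undetected cells. Ccr7, the homing receptor of naive T cells, is not on that list. It was counted in 12 detected cells (16.0%) and 31 undetected cells (24.4%), a smaller detected share on 4 of 4 plates. Its counts stood at 1.02, 11.1, 0 and 0.0276 CPM against 6.55, 5.99, 537 and 173.7 CPM, and edgeR did not call it (adjusted p = 1). In matched cells Ccr7 was counted in 8 and 12 cells.

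Among genes with the same sign on every plate and a count in 25% of the cells of 1 class, Apobec3, an antiviral cytidine deaminase gene, had the smallest edgeR p on sums of both all kept and matched cells. It was counted in 10, 12, 5 and 7 detected and in 4, 3, 1 and 5 undetected cells. Its level was 342.98, 337.9, 1207 and 1532 CPM against 4.24, 2.15, 0.247 and 352.6 CPM, higher in the detected sum of every plate. The undetected sum of imiquimod plate 2 nevertheless lay above the detected sums of both vehicle plates. The log2 fold change was 6.62 ± 1.91 (SE, unadjusted p = 0.0020, edgeR adjusted p = 1), and limma called it (3.37 ± 0.73, adjusted p = 0.012). In matched cells it was counted in 16 of 45 against 5 of 45 cells. Cnn2, which encodes an actin-binding calponin, stood at 1220, 995, 1931 and 862 CPM against 16.2, 27.8, 80.1 and 608 CPM (log2 fold change 4.12 ± 1.25, edgeR adjusted p = 1). Among genes with the opposite sign, Itgav, the integrin alpha V chain, stood at 1021, 784, 177.8 and 1855 CPM against 2631, 2124, 733 and 2850 CPM (-1.61 ± 0.54, adjusted p = 1). Itgav was nevertheless counted in 65.3% of detected and 55.1% of undetected cells, so the sum and the share of cells differed in sign.

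The other genes of smallest p in all kept cells, none of which passed, were Ppt1, Dusp1, Mtpn, Eef2, H2-D1, Eef1a1, Saraf, Rpa1, Il2rg and Ptpn1 with higher sums. Those with lower sums were Prkch, Smarca4, Mast4, Sntb1, Bcl2l1, H2-Ab1, Unc80, Chd7, Foxn3, Hpse2 and Iqgap1. Dusp1, an immediate early phosphatase gene, stood at 1527, 1149, 5138 and 4928 CPM against 787, 444, 2506 and 2450 CPM (0.85 ± 0.37). Its level was higher in the detected class on every plate, and higher on the imiquimod than on the vehicle plates in both classes. Mast4 had no count in the detected cells of either imiquimod plate. In matched cells the genes of smallest p were Apobec3, Ms4a4b, Lsp1, Ptbp2, Hsp90b1, Rpa1, Tgfbr2 and Fos with higher sums and Ppp3ca, Zswim4, Lmna, Zc3h7a, Epha6, Tuba1b, Myo1g and Nav2 with lower sums. Tgfbr2, a receptor chain for TGF-beta, was counted in 4, 1, 4 and 3 matched detected cells and in 1, 0, 0 and 1 undetected cells. Ms4a4b was counted in 7 and 0 matched cells, 2, 2, 2 and 1 by plate.

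By share of matched cells with a count, the genes most like Foxp3 were Arhgap45, CYTB and Sri, followed by Arid5b, Kmt5b, Sdf4, Sh3bgrl3 and Thy1, which tied at a difference of 12 cells. Rpl35, at 19 and 7 cells, had the same difference and was left out by name as a ribosomal protein gene. The measure of likeness was the difference in share between the classes over 45 pairs, with the same sign on all 4 plates. Arhgap45 was counted in 22 and 8 cells, CYTB, mitochondrial cytochrome b, in 29 and 15, and Sri, a calcium-binding protein gene, in 18 and 5. Arid5b was counted in 22 and 10, Kmt5b, a histone methyltransferase gene, in 15 and 3, Sdf4 in 19 and 7, Sh3bgrl3 in 21 and 9 and Thy1 in 17 and 5 cells. None was called by the test on cells with a count in matched cells. Genes found in fewer detected cells on 4 of 4 plates, named after their values were seen, included Mapkapk3 at 9 and 18, Ubac2 at 10 and 19, and the muscle gene Dmd at 23 and 31 cells.

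Whether the classes differed in another way under imiquimod was tested as an interaction in the 8 sums. edgeR called 0 of 8540 genes (0%), with 3.31% at an unadjusted p under 0.05, of which 31 genes had a higher class difference under imiquimod and the others a lower one. The smallest adjusted p was 0.11. The median interaction over all genes was -1.92 log2 units, with 35.5% of genes positive, beside the narrower gap in yield on the imiquimod plates. Leaving out imiquimod plate 1 gave 2 calls and leaving out imiquimod plate 2 gave 29. With 1 imiquimod plate left, the spread in these fits comes from the vehicle plates alone. DESeq2 called 1818 on all plates. Within the detected class the 8 Treg markers averaged 4.54 and 4.78 per cell for vehicle and 3.07 and 3.64 for imiquimod, and within the undetected class 2.55 and 2.09 against 1.71 and 1.97. Yield differed too, with medians of 2221 and 2739 genes in detected cells for vehicle and 1079 and 1344 for imiquimod. In undetected cells the medians were 840 and 1043 against 794.5 and 1043 genes. These marker averages were not matched on yield and were not tested.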

How the data were processed

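Reads of single mouse skin Treg cells were counted per gene and well, and the deposited values are whole-number read counts in 1 table of 384 wells and 50556 gene symbols. Per the labels' protocols, oligo dT priming and template switching made the cDNA, which was amplified and tagmented, with no molecular identifiers named, so PCR copies count as reads and limits cover counting error only. Trimmomatic 0.39, STAR 2.7.3a, SAMtools 1.12 and mm39 are listed in the submitters' processing notes. How reads were assigned to genes, with or without strand and by which annotation, is not given in the sources used here. Overlapping genes, such as Foxp3 and Ccdc22, can therefore share reads.

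The members, gene lists and tests were chosen with earlier results of these data known. Kept cells held 47481 to 5946386 counts (median 1443212), and no doublet caller was run on sorted wells. Counts were summed over each Foxp3 class of each plate, giving 8 sums, which were filtered and TMM-scaled in edgeR 4.0.16 (R 4.3.3) and tested with its quasi-likelihood test and the plate as a block. Adjustment was by Benjamini-Hochberg over all genes tested, with a threshold of 0.05. CPM are counts scaled to a total of 1000000 without Foxp3 and without TMM factors. DESeq2 1.42.0, limma 3.58.1 on log2(CPM + 1) of single cells averaged within a class, and edgeR on the number of cells with a count were run beside it. Pairs were matched within a plate by the smallest total distance in log2 genes detected. Per-plate measures were compared by exact two-sided permutation tests. The functions were tested on simulated data, in which the sums had a lower dispersion than the real sums. Those tests do not show how edgeR and DESeq2 perform at the dispersion found here.

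Genes were named by rule: up to 12 per direction in all kept cells and 8 in matched cells by fold change among those past the threshold, then by smallest p, which took all places. The rule asked for the same sign on every plate and a count in 25% of the cells of 1 class. It left out ribosomal (Rpl, Rps), mitochondrial (mt-), uncharacterised and variable receptor symbols. Mitochondrial genes without the mt- prefix, such as CYTB, were not left out. Further rules named 27 Treg and T cell genes always and up to 4 genes per list of 32 lists by level. A last rule named up to 6 genes most like Foxp3, without the left-out symbols, and ties at the last place were also named. Genes that limma called, genes of the highest yield group and those found in fewer detected cells were named after their values were seen. Gene spans came from RefSeq and GENCODE M21 of GRCm38, an older build than mm39. Wells of 10 cells and of no cell entered no comparison.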

Additional observations from a re-analysis of the deposited data

Results flagged for a closer look

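Of 59 values examined over the 4 plates, 7 had 1 plate far from the other 3, and chance flags about 1 in 20. The difference in the ribosomal protein share of counts in all kept cells was -0.022 percentage points on vehicle plate 1 and 0.935 to 1.01 on the other plates. The other 6 concern a gene whose other 3 plates had a class difference of exactly 0 in the share of cells. In matched cells the difference on imiquimod plate 2 was 9.09 percentage points for Tnfrsf18 and -9.09 for Ccdc22. On imiquimod plate 1 it was 30.8 for Penk, 7.69 for Ifng and -7.69 for Klrg1. In all kept cells it was -3.33 for Il2 on imiquimod plate 2, from 1 undetected cell.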

How the results depend on the processing

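In all kept cells edgeR called 0 genes on sums, and also 0 with DESeq2 size factors, no expression filter, no replicate block, each gene without its highest cell, thinning, a minimum of 1000 genes, Foxp3 at 10 CPM or more, a T cell receptor or CD3 filter chosen after seeing the data, and without each plate in turn. DESeq2 called 1481, DESeq2 with that filter 1460, limma 24 and the test on cells with a count 442. In matched cells the same settings, except thinning and the minimum of 1000 genes, which were run on all kept cells only, and 3 other ways of pairing gave 0, while DESeq2 called 766 and, with the filter, 719. The interaction with treatment gave 1818 calls in DESeq2 and 0 to 29 without 1 plate each, where 1 treatment has 1 plate left and the spread comes from the other. DESeq2 size factors moved the median fold change over all genes from 0.0040 to -0.12 in all kept cells.

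Of the 12 genes named for a lower sum in the detected class, 8 were higher in it on other scales. Under limma and in cells with a count the log2 differences were 1.02 and 0.25 for Itgav, 0.67 and 0.29 for Prkch, 0.14 and 0.48 for Smarca4, 0.70 and 0.67 for Sntb1, 1.23 and 0.70 for Bcl2l1, 0.70 and 0.84 for Chd7, 0.29 and 0.49 for Foxn3, and 2.36 and 0.83 for Iqgap1. H2-Ab1, Mast4 and Hpse2 stayed lower on both scales, at -0.84 and -0.76, -0.62 and -0.46, and -0.44 and -0.11. Unc80 had -0.12 under limma and 0.44 in cells with a count, and Zswim4 had 1.28 when pairs were matched on genes and counts. The cause was not tested. The replicate block was the plate, which the classes share, and leaving it out changed no count of calls. With 4 plates no exact test of a per-plate measure can reach a p of 0.05, and 6 pairs on vehicle plate 2 limit the matched values.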

Other observations

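MHC class I genes and receptors of costimulation were the fixed lists with higher summed levels in the detected class on 4 of 4 plates both in all kept and in matched cells, together with cytoskeleton genes. The 19 MHC class I genes summed to 12838 to 16986 CPM in detected and 4525 to 12177 CPM in undetected cells, and the log2 fold change was positive in 15 of 19 tested, at a median of 1.03, beside 0.0040 over all genes. In matched cells 12 of 14 were positive, with the same median of 1.03 beside 0.40 over all genes. H2-K1 and H2-D1 share sequence, so reads may be split between them. The 16 costimulatory and inhibitory receptors summed to 7802 to 11972 CPM against 4534 to 9804 CPM, with 11 of 14 positive and a median of 0.46.

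Cell cycle genes were found in few cells of either class, at median shares of 9.33% and 3.94% of cells for 25 genes tested. Interferon response genes had median shares of 14.0% and 5.12%, with 15 of 22 fold changes positive and a median of 0.32. The shares of both lists lay below the median shares given above for all genes tested. Immediate early and stress genes had 16 of 28 positive with a median of 0.24 in all kept cells, and in matched cells 14 of 22 with a median of 1.65, where their sums were higher in the detected class on 4 of 4 plates. Of glycolytic enzyme genes, 11 of 14 were positive with a median of 0.78. Over all genes tested in all kept cells, 50.1% of fold changes were positive, with a median of 0.0040. Over all genes tested in matched cells, 55.7% were positive, with a median of 0.40. The differences of these lists from all genes were not tested.

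Markers of other cell types were counted in both classes. Sums of the 11 dendritic and Langerhans cell markers were 188.7 to 722 CPM in detected and 263.9 to 2327 CPM in undetected cells. At least 3 of them had a count in 18 detected (24.0%) and 29 undetected cells (22.8%). Cd74, which encodes the MHC class II invariant chain, was counted in 29 and 40 cells and Zbtb46 in 32 and 36. H2-Aa was counted in 18 and 31 cells, H2-Ab1 in 13 and 36 and H2-Eb1 in 15 and 25. Itgax, Xcr1 and Clec9a were at 0 in the detected class and counted in 4, 2 and 1 undetected cells. Flt3 was counted in 4 and 6 cells, Epcam in 6 and 6 and Cd207 in 1 and 0. The macrophage gene Adgre1 was counted in 26 and 34 cells, with C1qa, C1qb and Fcgr1 at 0 in both classes. Sums of 10 markers of group 2 innate lymphoid cells, 4 of which are also tissue Treg genes, were 2066 to 4879 and 2054 to 4841 CPM. The 11 markers of CD8 T and NK cells summed to at most 1339 CPM in detected and 256.7 CPM in undetected cells, those of B cells to at most 81.4 and 197.1 CPM, and those of keratinocytes to at most 2.21 and 531 CPM. Pmel, a melanosome gene, was counted in 22 of 75 detected and 8 undetected cells and in 11 and 4 matched cells, while Tyrp1 had no count in any kept cell. Haemoglobin and other erythroid genes reached 914 CPM in detected and 1866 CPM in undetected sums.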
